A study of Mus musculus with 2 samples.

Results

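The cells described here were the endothelial cells among mononuclear cells of injured mouse quadriceps, 64 of 6735 cells on day 1 and 19 of 4627 cells on day 3 after injury, 83 of 11362 in all. They were chosen by their own RNA. A cell was taken when it held at least 1 UMI (a counted RNA molecule) of *Cdh5*, which encodes VE-cadherin of endothelial junctions, at least 3 UMIs of *Cdh5* and *Pecam1* (PECAM-1, the endothelial antigen CD31) together, and under 0.5% of its UMIs from *Lyz2*, the lysozyme gene of myeloid cells. The levels of these 3 genes are therefore a description of the choice and not a result.

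Both samples came from *WT* male mice 14 weeks old whose quadriceps had been injected with barium chloride (BaCl2), a salt that kills myofibers. 1 group was taken 1 day and the other 3 days after the injection, with the muscles of 5 mice pooled for each. Muscles were digested with enzymes, intact single cells were sorted by light scatter with no antibody against an endothelial antigen, and the cells were frozen, thawed and sequenced by 10x Genomics 3' single-cell RNA sequencing. With 1 pooled library per day there was no replicate and no test between the days. Every interval below is a 95% interval that covers counting error only, and the day, the pool of mice and the library cannot be told apart.

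Endothelial cells line the blood and lymphatic vessels. In skeletal muscle most belong to capillaries, where they pass oxygen, hormones and fatty acids to the fibers, and they also decide where leukocytes leave the blood. When vessels regrow, tip cells lead the sprout, guided by VEGF family ligands and their receptors, and angiopoietin, apelin and Notch signals act in sprouting and maturing vessels.

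The libraries held 74852240 UMIs on day 1 and 102565783 on day 3, and their cells shared 0 barcodes. The labels give the same kit version for both, but the barcode lists held 737280 entries on day 1 and 6794880 on day 3, so the chemistry may differ and cannot be told apart from the day. The endothelial cells held a median of 7497 UMIs on day 1 (1074 to 69954) and 11354 on day 3 (2029 to 63837), and 714628 and 316892 UMIs in all. Mitochondrial genes held a median of 1.96% of their UMIs on day 1 and 4.14% on day 3. Without the limit of 7.5% on mitochondrial UMIs the same choice gave 65 cells on day 1, 1 of them (1.54%) over the limit, and 28 on day 3, 9 of them (32.1%) over it. Over the limit were 3.95% and 28.1% of all cells of the 2 libraries.

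The label was checked against 25 pan-endothelial genes that the choice had not used. A day 1 cell held UMIs of a median of 16 of them (1 to 24) and a day 3 cell of 21 (2 to 25). At least 5 were found in 60 of 64 and 15 of 19 cells. Fibro-adipogenic progenitors (FAPs, the matrix-forming stromal cells of muscle) held a median of 2 on day 1 and 3 on day 3, and macrophages held 1 on both days, although both kinds were deeper in UMIs. 5 of the 83 cells went against the label, 2 on day 1 and 3 on day 3. They held no *Pecam1* UMI, 1 pan-endothelial gene on day 1 and 2 to 4 on day 3, and 64 to 429 and 600 to 1192 UMIs of FAP markers. Because they were deep, these cells carried 6.31% of all endothelial UMIs on day 1 and 39.4% on day 3.

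Many other cells held RNA of other cell types beside endothelial genes. Markers of FAPs, macrophages, leukocytes, neutrophils, pericytes with smooth muscle, and erythroid cells together held 0.5% or more of the UMIs in 25 of 64 day 1 cells and 5 of 19 day 3 cells, up to 17.4% in a day 1 cell with hemoglobin genes. Macrophage markers summed to 4006 CPM (UMIs of a gene per 1000000 UMIs of the cells summed) over the day 1 cells and 656 CPM over the day 3 cells, with 12 and 11 of 12 genes present. Neutrophil markers summed to 5946 and 161 CPM, with 8 and 5 of 8 genes present, and platelet markers to 2948 and 186 CPM, with 3 and 2 of 8. *Pf4* and *Ppbp* made up nearly all of the platelet sum on day 1, at 2547 and 397 CPM. In all other cells of day 1 they stood at 3690 and 410 CPM. *Gp9*, *Gp1bb*, *Gp5*, *Tubb1* and *Treml1* had 0 UMIs on both days, so the sum does not show platelet RNA. FAP markers, unlike the sums above, were higher on day 3, 974 CPM on day 1 and 12474 CPM on day 3, with 10 of 10 genes present on both days. 1 cell held 61.6% of these UMIs on day 1 and 38.7% on day 3. The day 3 cells that went against the label held 600 to 1192 of them each. Pericyte and smooth muscle markers summed to 360 and 757 CPM, with 11 and 7 of 12 present, and 83.3% of those UMIs on day 3 came from 1 cell. T, NK and B cell markers were at 0 for all 8 genes on day 1 and for 7 of 8 on day 3.

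The RNA of other cells thus differed in kind between the days, mainly myeloid on day 1 and, in a few cells, stromal on day 3. Most results below are also given for a restricted set, the 39 cells of day 1 and 14 cells of day 3 in which those markers held under 0.5% of UMIs. This set was chosen after the data had been seen. The day ratios were also computed without cells holding *Ptprc*, the leukocyte antigen CD45, without likely doublets, and with ambient RNA subtracted. The ambient share was set at 15.1% on day 1, by *Lyz2*, and at 0.974% on day 3, by *S100a8*. How much of the myeloid RNA of day 1 was ambient was not tested. The restricted set holds 225676 and 124574 UMIs and none of the 5 cells that went against the label. In it macrophage markers summed to 151 CPM on day 1 and 128 CPM on day 3, and FAP markers to 17.7 and 80.3 CPM. Leukocyte markers summed to 758 and 763 CPM, of which *Srgn* alone made up 705 and 514 CPM. The set was not even for every list, with pericyte and smooth muscle markers at 527 CPM on day 1 and 48.2 CPM on day 3, and neutrophil markers at 120 and 385 CPM. 1 day 3 cell of this set held 90.2% of the neutrophil marker UMIs of all day 3 endothelial cells. The plot of other cells' RNA shows the 2 kinds side by side.

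**Figure D1:**
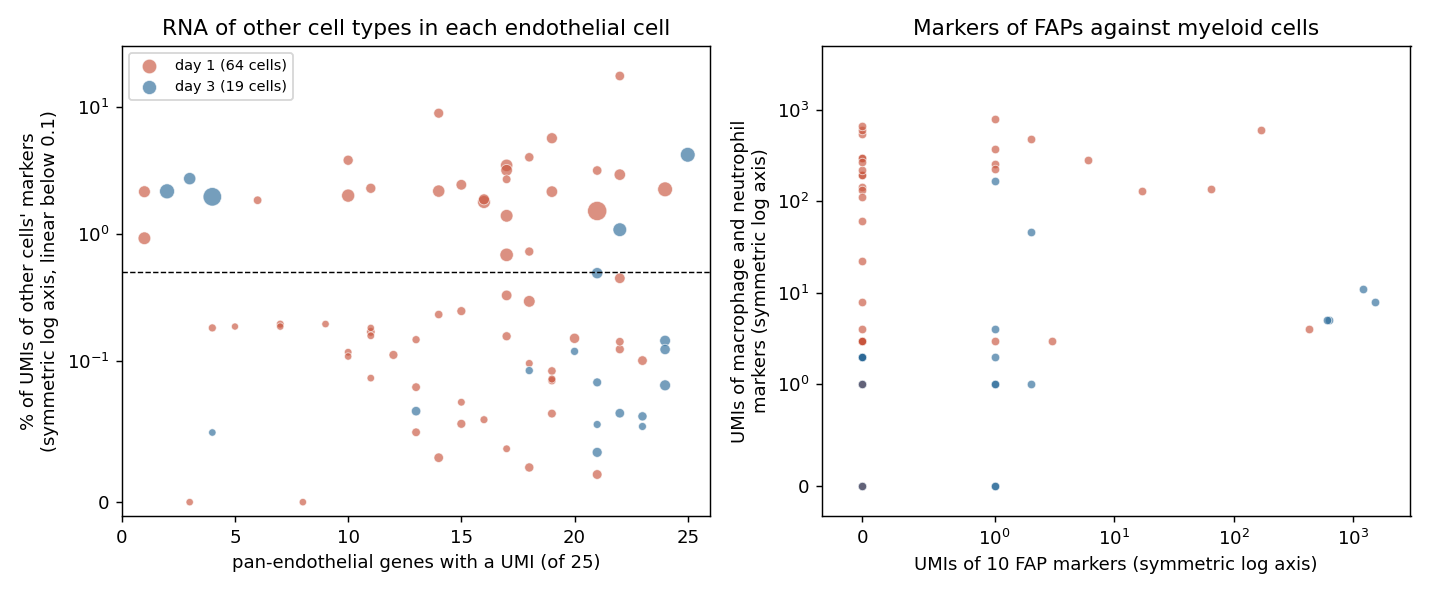
Each point is 1 endothelial cell, red for day 1 and blue for day 3. Left, the number of 25 pan-endothelial genes with a UMI (x axis) against the percentage of UMIs from markers of other cells (y axis, symmetric log scale), point area growing with the cell's UMIs and a dashed line at 0.5%; right, UMIs of 10 FAP markers (x axis) against UMIs of macrophage and neutrophil markers (y axis), both on symmetric log scales. 25 day 1 and 5 day 3 cells lie at or over the line, the day 1 cells mostly high in myeloid markers and 4 day 3 cells high in FAP markers.

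The genes that marked these cells most were *Emcn*, *Gpihbp1*, *Adgrl4*, *Cdh5*, *Esam*, *Ptprb*, *Cldn5*, *Mmrn2*, *Adgrf5* and *Egfl7*, ranked by the ratio of their level to that in all other cells, taking the lower of both days. *Cdh5* was used to choose the cells, and the others are a description of the chosen cells, with no test. *Emcn*, which encodes the surface sialomucin endomucin, stood at 169 CPM on day 1 and 246 CPM on day 3, against 0.185 and 0.107 CPM in the other cells. *Gpihbp1*, which holds lipoprotein lipase on the capillary wall, stood at 421 and 445 CPM against 0.511 and 0.0954 CPM. *Ptprb*, the endothelial phosphatase VE-PTP, stood at 129 and 234 CPM against 0.327 and 0.0477 CPM. On the log2 scale the endothelial level was above that of the other cells by 9.79 and 11.09 for *Emcn*, 9.67 and 12.11 for *Gpihbp1*, and 8.60 and 12.10 for *Ptprb*.

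2 promoters are printed, that of *Emcn* as the gene that led this ranking and that of *Apln* as a tip cell gene that was lower on day 3. Capitals mark AGGAAG or, on the other strand, CTTCCT, a core motif bound by ETS family factors such as ERG. The sequences are RefSeq promoters of build GRCm38.p6, 250 bases before to 50 after the gene start, read along the gene's strand.
*Emcn*, chr3:137340828-137341127, + strand: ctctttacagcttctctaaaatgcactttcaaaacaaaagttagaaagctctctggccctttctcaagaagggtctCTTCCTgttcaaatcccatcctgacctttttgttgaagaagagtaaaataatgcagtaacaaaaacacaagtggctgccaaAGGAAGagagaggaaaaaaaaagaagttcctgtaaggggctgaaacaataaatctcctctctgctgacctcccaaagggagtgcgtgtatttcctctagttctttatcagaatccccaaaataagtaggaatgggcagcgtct
*Apln*, chrX:48034804-48035103, - strand: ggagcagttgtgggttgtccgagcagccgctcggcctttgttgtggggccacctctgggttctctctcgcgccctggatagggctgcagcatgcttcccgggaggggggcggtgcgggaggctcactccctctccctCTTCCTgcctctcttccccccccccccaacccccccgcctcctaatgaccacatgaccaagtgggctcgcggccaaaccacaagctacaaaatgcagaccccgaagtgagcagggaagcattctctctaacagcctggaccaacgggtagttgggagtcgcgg
The motif was found 2 times at *Emcn*, once on each strand, and 1 time at *Apln*. It was present in 5 of 8 promoters (62.5%) found for 5 of the 10 leading genes, and in 11613 of 32851 promoters of 300 bases in all (35.4%). Of the list genes that were lower or higher on day 3 in both choices of cells described below, it was in 3 of 8 promoters (37.5%) and 6 of 15 (40%). A match is a description of these letters and not of binding.

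Endothelial cells were 0.95% of cells on day 1 (0.733 to 1.21%) and 0.411% on day 3 (0.247 to 0.641%). The share was lower on day 3 and these intervals did not overlap. In the restricted set it was 0.579% (0.412 to 0.791%) and 0.303% (0.166 to 0.507%), and with a mitochondrial limit of 15% it was 0.947% (0.731 to 1.205%) and 0.520% (0.343 to 0.755%). The share was lower on day 3 under both, with overlapping intervals, as it was without cells holding a UMI of *Ptprc*, at 0.668% (0.488 to 0.893%) and 0.367% (0.214 to 0.588%). These are shares of the cells recovered from a sorted and thawed suspension, in which fewer endothelial cells and more cells of other types cannot be told apart. Of the cells with a *Cdh5* UMI, 108 on day 1 and 97 on day 3, the demand for 3 UMIs left out 35 and 76 and the *Lyz2* limit another 9 and 2. Near the bounds lay 6 and 0 members with exactly 3 UMIs, 2 and 10 cells left out with exactly 2, and *Lyz2* shares of 0.431% inside and 0.563% outside on day 1, 0.268% and 0.894% on day 3.

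Levels on the 2 days were compared for 3418 genes with at least 50 UMIs over the 83 cells, as log2 of the CPM on day 3 over that on day 1, with 0.5 UMI added to each sum. A gene was counted as higher or lower when it was at least 2-fold apart, a rule of size and not a test. On day 3, 370 genes (10.8%) were higher and 469 (13.7%) lower, and the median log2 ratio was -0.04. Of 1201 genes that entered in the restricted set 88 (7.33%) were higher and 156 (13%) lower, with a median of -0.16. In both choices of cells 45 genes (3.75%) were higher and 81 (6.74%) lower, and 0 lay 2-fold apart in opposite directions. Among them were 27 genes of the functional lists, 16 higher and 11 lower, of 152 list genes that entered in both. For some named genes the ratio in the restricted set is given although under 50 UMIs were left there.

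**Figure D2:**
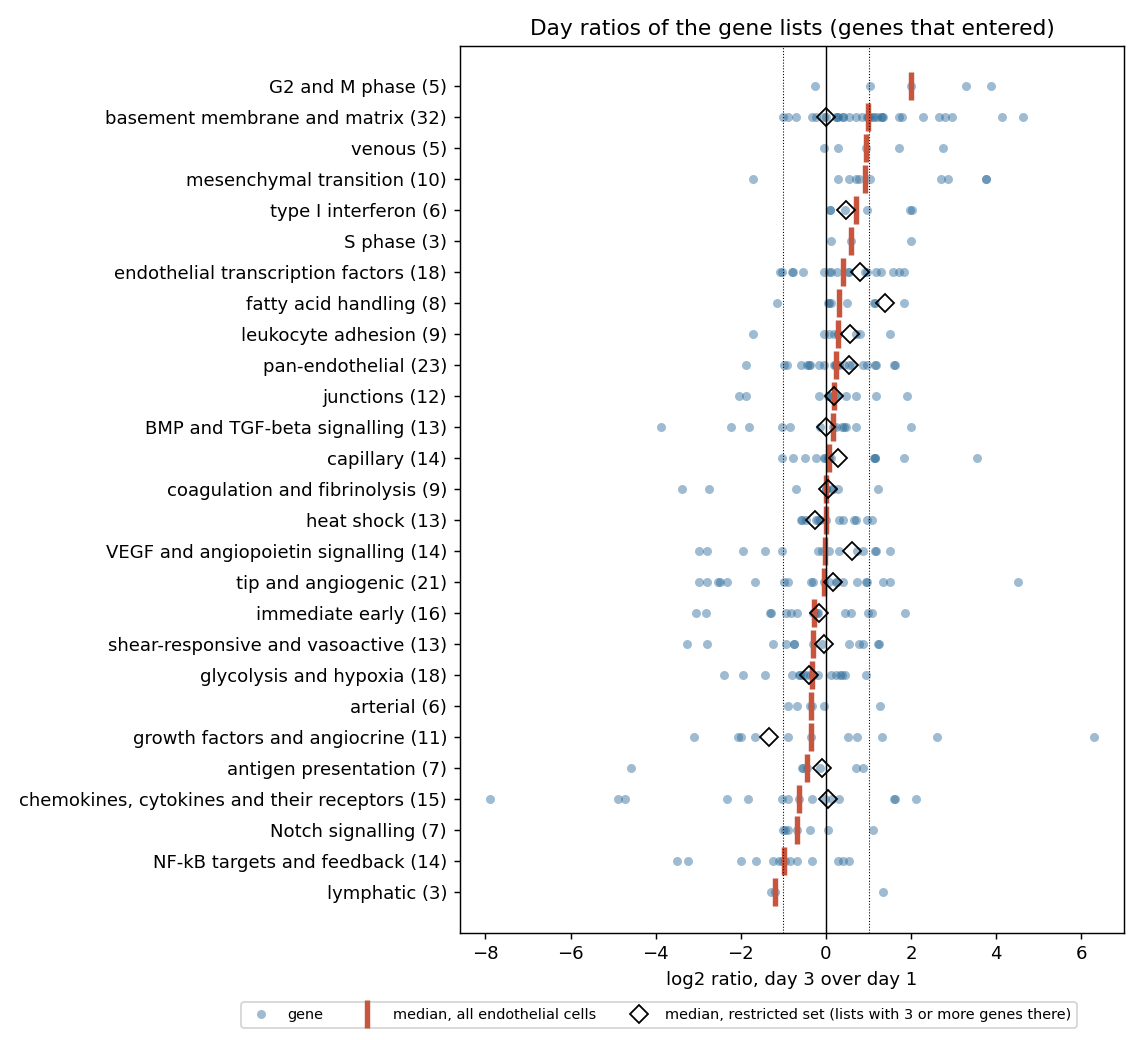
Each row is a gene list with the number of its genes that entered, and each blue point is 1 gene. The x axis gives log2 of CPM on day 3 divided by CPM on day 1 in all endothelial cells; red bars mark the median over all endothelial cells, open diamonds the median in the restricted set for lists with 3 or more genes there, and dotted lines 2-fold. The medians of the matrix and NF-kB lists lie near 1 and -1 in all cells and the matrix median near 0 in the restricted set, while the growth factor diamond lies at -1.34.

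The spread of single genes within most lists was wider than the distance of the list's median from 0, as the plot of gene lists shows. The account therefore follows the genes by role, beginning with the ligands that endothelial cells make when vessels sprout.

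*Pgf*, placental growth factor, a ligand of the VEGF receptor FLT1, stood at 1055 CPM on day 1 (981 to 1133) and 133 CPM on day 3 (95.5 to 179). It was found in 53 of 64 cells and 6 of 19 cells. Its log2 ratio was -2.98 (-3.48 to -2.54), and -2.82 in the restricted set. FAPs also held less on day 3, 32.4 CPM on day 1 and 4.24 CPM on day 3, at levels well under those of endothelial cells.

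*Angpt2*, the angiopoietin released by activated endothelium, stood at 143 CPM (116 to 173) and 18.9 CPM (6.95 to 41.2), in 24 and 2 cells. Its log2 ratio was -2.81, and -2.71 in the restricted set, and 1 day 1 cell held 32.4% of the day 1 UMIs. *Apln*, which encodes apelin, stood at 255 CPM (219 to 294) and 78.9 CPM (51.1 to 116), in 27 and 3 cells. Its log2 ratio was -1.67 (-2.36 to -1.08), and -1.54 in the restricted set, and 76% of its day 3 UMIs came from 1 cell. In FAPs *Apln* went the other way, from 2.05 CPM on day 1 to 22.5 CPM on day 3, a ratio of 3.44. In endothelial cells all 3 ligands were lower on day 3, in fewer cells.

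Within endothelial cells the apelin receptor gene went in the opposite direction from its ligand. *Aplnr* stood at 9.80 CPM on day 1 (3.94 to 20.2) and 237 CPM on day 3 (186 to 297), in 2 of 64 and 11 of 19 cells. Its log2 ratio was 4.50 (3.48 to 5.96), and 5.50 in the restricted set, the highest of the list genes that held in both choices of cells. *Aplnr* was at 0.0142 and 0.238 CPM in all other cells. On day 3, 10 of the 11 cells with *Aplnr* also held *Plvap*, while 1 of the 11 held *Pgf* and 1 held *Apln*. Of all 19 cells, 12 held *Plvap*, 6 *Pgf* and 3 *Apln*. On day 1, 0 of the 27 cells with *Apln* held *Aplnr*. With *Aplnr* in 2 of 64 cells, that count cannot show whether the genes lie apart. In the restricted set of day 3, 8 of 9 cells with *Aplnr* held *Plvap*, 1 held *Pgf* and 1 held *Apln*. Of all 14 cells there, 10 held *Plvap*, 5 *Pgf* and 3 *Apln*. These counts are small, cells differ in depth, and a gene with no UMI in a cell may still be expressed.

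Receptors of the VEGF and angiopoietin pathways were level or higher. *Kdr*, the main VEGF receptor of blood vessels, stood at 96.6 CPM (75.1 to 122) and 215 CPM (167 to 272), with a log2 ratio of 1.15 and 1.78 in the restricted set. *Nrp1*, a VEGF co-receptor, stood at 116 and 328 CPM, a log2 ratio of 1.5 that was 0.89 in the restricted set. FAPs and macrophages showed a like ratio for it, 1.65 and 1.62. *Tek*, the angiopoietin receptor, had a ratio of 1.17 and 1.37. *Flt1*, which binds *Pgf*, stood at 346 CPM (304 to 392) and 360 CPM (297 to 432), with overlapping intervals and a ratio of 0.60 in the restricted set. Of 14 genes of VEGF and angiopoietin signalling that entered, 3 were higher, 5 lower and 6 neither, with a median of -0.02. The restricted set had 2 of 7 higher and 1 lower, with a median of 0.60. Over all genes 10.8% were higher and 13.7% lower, and 7.33% and 13% in the restricted set.

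Among other genes of the tip and angiogenic list, *Rnd1*, a small GTPase, stood at 197 CPM on day 1 and 37.9 CPM on day 3, with log2 ratios of -2.33 and -2.17 in the 2 choices of cells. *Trp53i11* stood at 204 and 34.7 CPM, with ratios of -2.50 and -2.22. *Sox17* and *Dll4* of the arterial list, which act in arterial identity and in Notch signalling between sprouting cells, had ratios of -0.04 and -0.89, and 0.17 and -0.43 in the restricted set. *Cxcr4*, the receptor of *Cxcl12*, had a ratio of -2.53, but the restricted set held 10 of its UMIs. Of 21 genes that entered, 3 were higher and 6 lower, beside 10.8% and 13.7% of all genes. In the restricted set 2 of 14 were higher and 4 lower, beside 7.33% and 13%. 2 or more of the list's 25 genes were found in 57 of 58 day 1 and 19 of 19 day 3 cells after each cell was thinned to 2000 UMIs, but also in 73.7% and 85.6% of FAPs, so presence of the list did not separate the days.

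**Figure D3:**
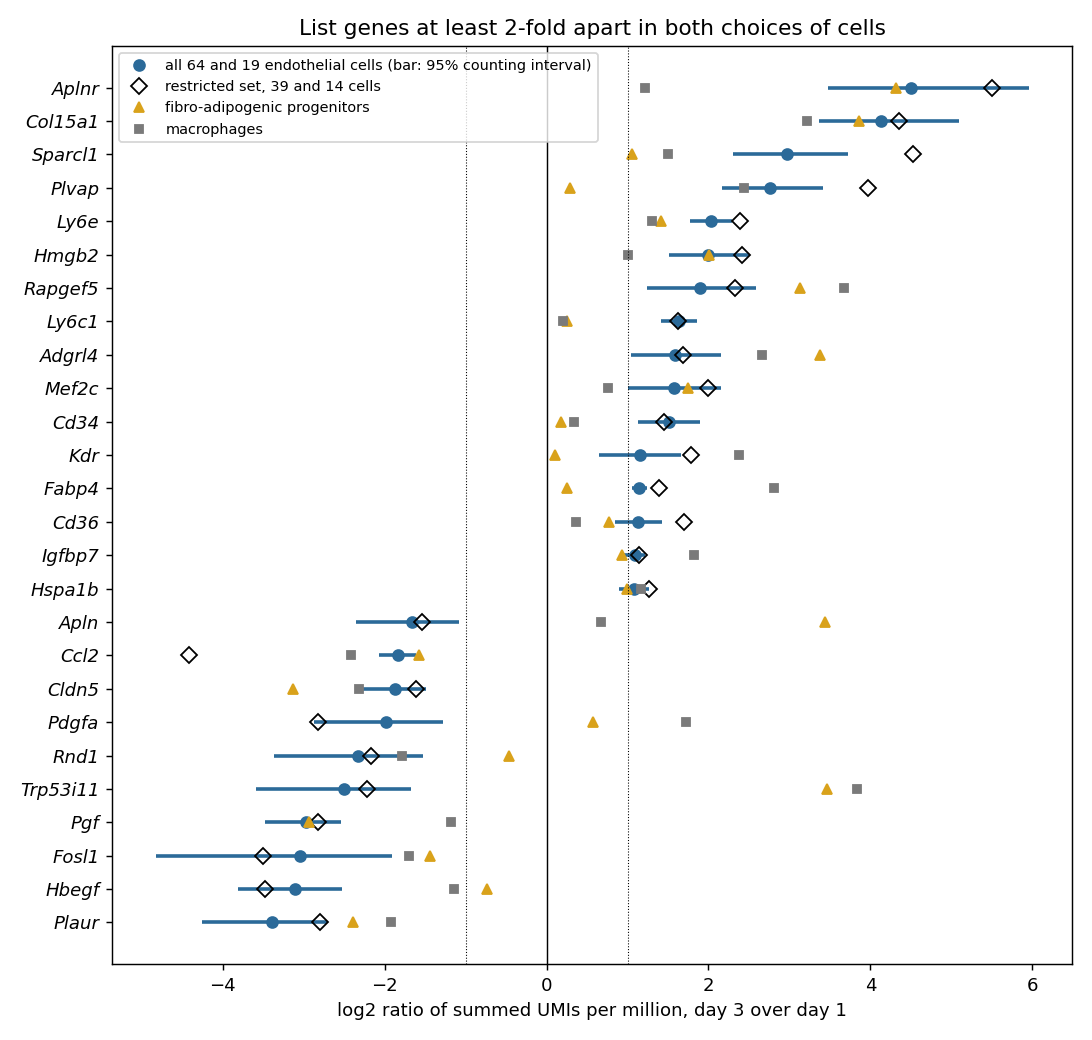
26 of the 27 list genes that were at least 2-fold apart in both choices of cells, with log2 of CPM on day 3 divided by CPM on day 1 on the x axis. Blue points are all endothelial cells with 95% counting intervals as bars, open diamonds the restricted set, triangles FAPs and squares macrophages; *Aplnr*, at 4.50, is the highest and *Plaur*, at -3.39, the lowest for all cells.

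Of the growth factors that act on other cells, *Hbegf* and *Pdgfa* were lower on day 3. *Hbegf*, a ligand of the EGF receptor, stood at 638 CPM (581 to 699) and 72.6 CPM (46.0 to 109), in 55 of 64 and 9 of 19 cells, with a log2 ratio of -3.11 (-3.81 to -2.53), and -3.48 in the restricted set. In FAPs and macrophages its ratio was -0.73 and -1.15. *Pdgfa*, a platelet-derived growth factor whose receptor marks FAPs, stood at 206 CPM (174 to 242) and 50.5 CPM (28.9 to 82.0). Its ratio was -1.99, and -2.83 in the restricted set, while in FAPs and macrophages it was 0.57 and 1.73. *Pdgfb*, which draws pericytes to vessels, stood at 151 CPM (124 to 182) and 117 CPM (82.2 to 161), with overlapping intervals and a ratio of 0.27 in the restricted set.

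*Bmp2*, a bone morphogenetic protein, had 49 UMIs in 11 day 1 cells and 1 UMI on day 3, a log2 ratio of -3.87 (-9.77 to -1.90), and 44 and 0 UMIs in the restricted set. Of the 11 genes of the growth factor list that entered, 3 were higher and 4 lower, beside 10.8% and 13.7% of all genes. The 3 higher, *Igfbp5*, *Igfbp4* and *Lgals9*, were led by *Igfbp5* at 6.30, which had 0 UMIs in the restricted set. There 0 of 7 were higher and 4 lower, beside 7.33% and 13% of all genes. Their median was -1.34, and that of all genes -0.16. The 4 were *Hbegf*, *Pdgfa*, *Apln* and *Ccn1*, a matricellular protein whose ratio was -0.90 in all cells and -1.34 in the restricted set.

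Genes of cell junctions lay in both directions. *Cldn5*, the main claudin of endothelial tight junctions, stood at 708 CPM on day 1 (648 to 773) and 192 CPM on day 3 (147 to 247). It was found in 57 of 64 and 13 of 19 cells, with a log2 ratio of -1.87 (-2.29 to -1.49), and -1.61 in the restricted set. Other junction genes did not share this. *Esam* stood at 397 CPM (353 to 446) and 353 CPM (291 to 425), with ratios of -0.17 and 0.04, *Tjp1*, which encodes ZO-1, had ratios of 1.17 and 1.09, and *Rapgef5*, an exchange factor for Rap GTPases, had ratios of 1.89 and 2.33. Of 12 junction genes 2 were higher and 2 lower, beside 10.8% and 13.7% of all genes, with a median of 0.18. The restricted set had 3 and 2 of 10, beside 7.33% and 13%.

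Of 23 pan-endothelial genes that entered, 4 were higher, 1 lower and 18 neither, beside 10.8% and 13.7% of all genes. The median log2 ratio of the pan-endothelial list was 0.24, and 0.55 over 20 genes in the restricted set, but -0.40 without the cells holding a UMI of *Ptprc*. The 4 were *Kdr*, *Tek*, *Adgrl4*, an adhesion receptor, and *Ly6c1*, a GPI-anchored surface protein. *Ly6c1* stood at 402 CPM (356 to 451) and 1246 CPM (1127 to 1376), with a ratio of 1.63 and 1.62 in the restricted set. In FAPs, which also hold it, the ratio was 0.25. *Cd34*, a sialomucin of capillary endothelium, stood at 147 CPM (120 to 178) and 420 CPM (351 to 497), with ratios of 1.51 and 1.45 against 0.18 in FAPs. *Cldn5* was the gene that was lower.

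Some capillary genes that handle lipid were higher on day 3. *Fabp4*, a fatty acid-binding protein of muscle capillaries, stood at 2758 CPM (2638 to 2883) and 6100 CPM (5831 to 6378), in 62 of 64 and 17 of 19 cells, with a log2 ratio of 1.15 (1.05 to 1.24), and 1.39 in the restricted set. *Cd36*, which takes up fatty acids, stood at 284 CPM (246 to 326) and 622 CPM (538 to 715), with ratios of 1.13 and 1.69. Macrophages also hold *Cd36*, 283 CPM on day 1 and 363 CPM on day 3, a ratio of 0.36.

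*Meox2* and *Tcf15*, transcription factors that together drive fatty acid uptake in muscle and heart endothelium, had ratios of 1.84 and 0.13 in all cells, in that order. *Gpihbp1* stood at 421 CPM (375 to 472) and 445 CPM (375 to 525), and *Aqp1*, a water channel, at 431 CPM (384 to 482) and 417 CPM (349 to 494), with overlapping intervals. *Fabp5* had a ratio of 0.49 in all cells but 3.11 in the restricted set, where it stood at 182 and 1581 CPM. Of 8 fatty acid genes 3 were higher and 1 lower, beside 10.8% and 13.7% of all genes, with a median of 0.31. There were 4 of 5 higher in the restricted set, beside 7.33% of all genes there, with a median of 1.39, the highest of the lists with 5 or more genes there. Of 14 capillary genes, a list that shares 6 genes with it, 5 were higher and 1 lower, and 4 of 10 were higher and 0 lower in the restricted set.

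*Plvap*, which forms the diaphragms of fenestrae and caveolae and marks venules and some capillaries, stood at 42.0 CPM (28.3 to 59.9) on day 1 and 287 CPM (231 to 353) on day 3. It was found in 10 of 64 and 12 of 19 cells. Its log2 ratio was 2.76 (2.16 to 3.42), and 3.97 in the restricted set, where 6 of 39 and 10 of 14 cells held it. *Nr2f2*, the transcription factor of venous identity, had a ratio of 1.71 in all cells, with 47.4% of its day 3 UMIs in 1 cell, and too few UMIs in the restricted set to enter. *Lrg1*, a secreted glycoprotein of venules and neutrophils, stood at 134 and 129 CPM in all cells but at 31.0 and 297 CPM in the restricted set. *Ackr1*, *Vwf*, *Selp* and *Sele*, the classical genes of postcapillary venules, stayed under the minimum of 50 UMIs, with 7, 12, 3 and 9 UMIs over both days.

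After thinning to 2000 UMIs, 2 or more of the 13 venous genes were found in 10 of 58 day 1 cells (17.2%, 8.59 to 29.4%) and 7 of 19 day 3 cells (36.8%, 16.3 to 61.6%). The restricted set had 3 of 33 (9.09%, 1.92 to 24.3%) and 7 of 14 (50%, 23.04 to 77.0%). The share was higher on day 3 in both, and the intervals overlapped. FAPs and macrophages, which should lack a venous program, reached 4.27% and 2.47% on day 1 and 6.76% and 0.822% on day 3. Before thinning, the shares were 43.8% and 78.9%, with the day 3 cells deeper.

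The arterial shares lay close together. 2 or more of 18 arterial genes were found in 25 of 58 day 1 cells (43.1%, 30.2 to 56.8%) and 7 of 19 day 3 cells (36.8%, 16.3 to 61.6%), and in 17 of 33 and 7 of 14 cells of the restricted set. The shares were 3.02% and 10.7% in FAPs and 0.0392% and 0% in macrophages. Lymphatic genes were scarce. *Prox1*, the lymphatic master factor, had 0 UMIs on day 1 and 2 in 1 cell on day 3, *Mmrn1* had 0 on both days, and in the restricted set 0 of 33 and 0 of 14 cells held 2 lymphatic genes, with exact upper limits of 10.6% and 23.2%.

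**Figure D4:**
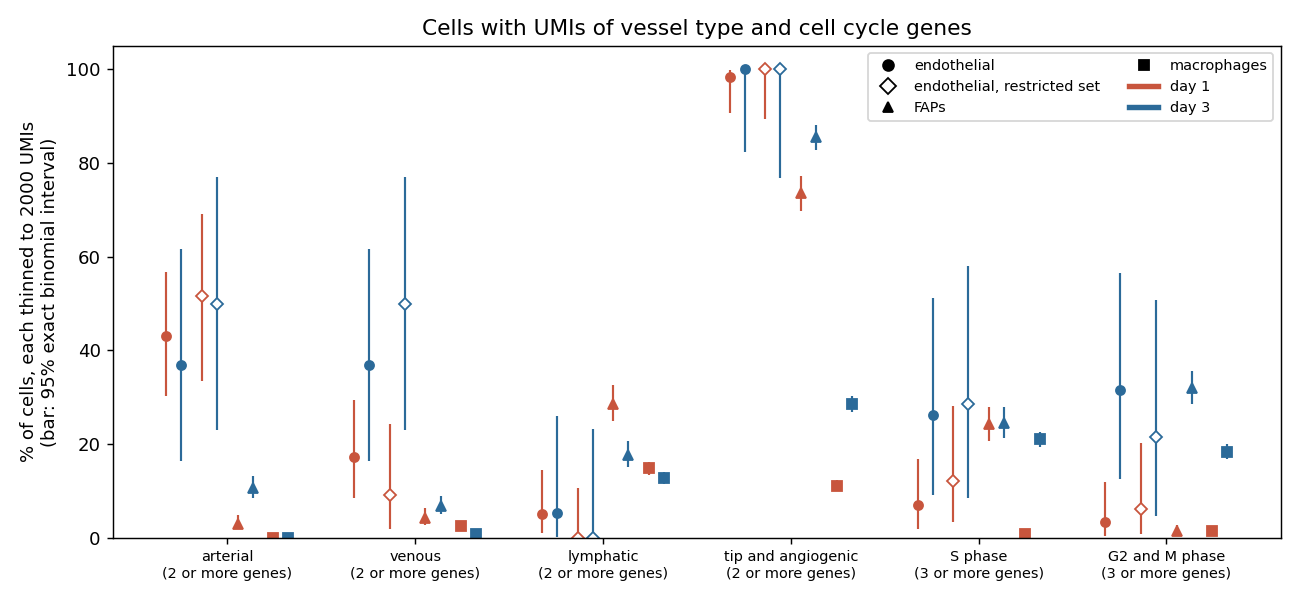
The percentage of cells with UMIs of at least 2 genes of a vessel type list or 3 genes of a cell cycle list, each cell thinned to 2000 UMIs (y axis), with exact 95% binomial intervals as bars. Red is day 1 and blue day 3; circles are all endothelial cells, open diamonds the restricted set, triangles FAPs and squares macrophages. Venous and G2 and M phase shares of endothelial cells sit higher on day 3 with overlapping intervals, and in the latter FAPs and macrophages sit higher on day 3 too.

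Matrix genes depended on a few cells. Of 32 genes of basement membrane and matrix that entered, 15 were higher (10.8% of all genes were) and 0 lower, with a median of 0.98. Of 18 in the restricted set 3 were higher and 1 lower, beside 7.33% and 13% of all genes there, with a median of -0.01. *Bgn*, a proteoglycan of stromal cells, stood at 178 and 1127 CPM, with 65% of its day 3 UMIs in 1 cell, and at 22.2 and 16.1 CPM in the restricted set. *Serpinh1*, the collagen chaperone, had a ratio of 1.14 that was -0.19 in the restricted set. The main collagens of the vessel basement membrane were level. *Col4a1* stood at 1019 CPM (946 to 1095) and 1199 CPM (1082 to 1326), with ratios of 0.24 and 0.07, and *Col4a2* had ratios of -0.04 and -0.16.

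3 matrix genes were higher in both choices of cells. *Col15a1*, a basement membrane collagen, stood at 19.6 CPM (10.7 to 32.9) and 353 CPM (291 to 425), in 10 of 64 and 13 of 19 cells. Its ratio was 4.13 (3.37 to 5.09), and 4.36 in the restricted set, and in FAPs, at 7.10 and 104 CPM, it was 3.86. *Sparcl1*, a matricellular protein, stood at 32.2 CPM (20.4 to 48.3) and 256 CPM (203 to 318), in 8 and 15 cells, with ratios of 2.97 and 4.53 and 1.06 in FAPs. *Igfbp7*, a vessel matrix protein, stood at 1307 CPM (1224 to 1394) and 2777 CPM (2596 to 2967), with ratios of 1.09 and 1.14, beside 0.93 in FAPs.

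Inflammatory genes also depended on the choice of cells. *Cxcl2*, a neutrophil chemokine, stood at 9251 CPM on day 1 and 309 CPM on day 3, a log2 ratio of -4.90. In the restricted set it stood at 518 and 706 CPM, a ratio of 0.45, with macrophages at 22464 and 2578 CPM. Of 14 NF-kB targets 0 were higher and 7 lower (13.7% of all genes were), with a median of -0.996. In the restricted set the list held 2 genes, *Icam1*, an adhesion receptor for leukocytes, at 1.5 and *Nfkbia*, the NF-kB inhibitor, at -0.70. *Ccl2*, a monocyte chemokine, was lower in both, at 1993 and 559 CPM in all cells, with 66.1% of day 3 UMIs in 1 cell, and at 425 and 16.1 CPM in the restricted set. *Cxcl12*, the constitutive chemokine of capillaries, stood at 669 CPM (610 to 732) and 663 CPM (576 to 759), with ratios of -0.01 and 0.06.

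*Plaur*, the urokinase receptor, had a ratio of -3.39 (-4.26 to -2.72), from 546 CPM in 55 of 64 cells to 50.5 CPM in 8 of 19, and -2.80 in the restricted set. In FAPs and macrophages it was -2.39 and -1.92. *Fosl1*, an AP-1 factor, stood at 143 CPM (116 to 173) and 15.8 CPM (5.12 to 36.8), with ratios of -3.05 and -3.51, beside -1.44 in FAPs and -1.70 in macrophages. Of the other immediate early genes, *Egr1* and *Fos* had ratios of 1.86 and 1.09 in all cells and 0.65 and 0.52 in the restricted set. Of 16 genes 2 were higher and 4 lower, beside 10.8% and 13.7% of all genes, with a median of -0.27. The restricted set had 0 and 1 of 12, beside 7.33% and 13%.

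Genes of vessel tone lay in both directions. *Ednrb*, an endothelin receptor, had 118 UMIs on day 1, 32.2% of them in 1 cell, and 5 on day 3, a ratio of -3.26 (-5.04 to -2.12). It was also lower in macrophages, at 139 and 18.4 CPM, and the restricted set held 32 of its UMIs, too few to enter. *Nos3*, the endothelial nitric oxide synthase, had a ratio of -1.24 (-1.96 to -0.63) and of -0.60 in the restricted set. *Edn1*, endothelin-1, stood at 106 and 183 CPM, with 60.3% of day 3 UMIs in 1 cell and a ratio of 1.92 in the restricted set. *Klf2*, a factor that responds to flow, had ratios of -0.76 and 0.00. Of 13 genes 2 were higher and 3 lower, beside 10.8% and 13.7% of all genes. The restricted set had 1 and 0 of 8, beside 7.33% and 13%.

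The remaining lists held few genes that were 2-fold apart in both choices of cells. In heat shock, *Hspa1b*, an inducible HSP70, was higher at 700 and 1483 CPM, with ratios of 1.08 in endothelial cells, 1.00 in FAPs and 1.17 in macrophages, and 12 of 13 genes were neither higher nor lower. Of 6 interferon genes 2 were higher and 0 lower, beside 10.8% and 13.7% of all genes. The restricted set had 1 and 0 of 4, beside 7.33% and 13%. *Ly6e* stood at 277 CPM (240 to 318) and 1130 CPM (1016 to 1253), with ratios of 2.03 and 2.38, beside 1.42 in FAPs and 1.30 in macrophages. *Isg15* had ratios of 1.98 and -0.10, with 68.6% of its day 3 UMIs in 1 cell. *Mef2c*, a transcription factor of vessel development, was higher at 65.8 and 196 CPM, with ratios of 1.57 and 1.99, beside 1.75 in FAPs and 0.75 in macrophages. *Erg*, the ETS factor of endothelium, stayed under the minimum at 42.0 CPM (28.3 to 59.9) and 41.0 CPM (21.8 to 70.2). Of 18 glycolysis and hypoxia genes 0 were higher and 3 lower, beside 10.8% and 13.7% of all genes. The restricted set had 0 and 1 of 8, beside 7.33% and 13%. Among the 3 was *Slc2a1*, the glucose transporter GLUT1, at 123 and 22.1 CPM. Its ratios were -2.39 in all cells and -2.70 in the restricted set, where under 50 UMIs were left. In the other lists the higher and lower genes are given beside 10.8% and 13.7% of all genes, and 7.33% and 13% in the restricted set. Notch signalling had 1 and 1 of 7, and 0 and 0 of 2 in the restricted set. BMP and TGF-beta signalling had 1 and 4 of 13, and 0 and 0 of 5. Leukocyte adhesion had 1 and 1 of 9, and 3 and 0 of 7. These lists gave no direction shared by both choices of cells. Chemokines and cytokines had 3 and 6 of 15, and 0 and 1 of 5. Coagulation had 1 and 2 of 9, and 1 and 1 of 6. Transcription factors had 5 and 2 of 18, and 2 and 0 of 9. In the transcription factor list more genes were higher than lower in both choices of cells. Antigen presentation had 0 and 1 of 7, and 0 and 0 of 3, and mesenchymal transition 5 and 1 of 10, and 0 and 0 of 2. In the last, *Tagln* and *Acta2*, smooth muscle genes, had 98.5% and 83.5% of their day 3 UMIs in 1 cell.

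Most cell cycle genes stayed under the minimum, 23 of 28 of G2 and M phase and 24 of 27 of S phase. Of 5 G2 and M phase genes that entered 4 were higher (10.8% of all genes were), and 1 of 2 in the restricted set (7.33%). Of 3 S phase genes 1, *Tyms*, a synthase of thymidylate, was higher, and 0 of 1 in the restricted set. A cell cycle gene near 0 on day 1 can reach the minimum only by its day 3 UMIs. These counts therefore give no direction for the 2 lists. *Stmn1*, a tubulin regulator of dividing cells, stood at 20.99 CPM (11.7 to 34.6) and 319 CPM (260 to 387), in 10 of 64 and 11 of 19 cells, a ratio of 3.88, and 3.42 in the restricted set, beside 3.62 in FAPs and 4.57 in macrophages. *Hmgb2* had ratios of 1.99 and 2.41, beside 2.01 in FAPs and 1.01 in macrophages. *Mki67*, the proliferation antigen, had 1 UMI on day 1 and 44 on day 3, in 6 cells, and was under the minimum.

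After thinning, 3 or more G2 and M phase genes were found in 2 of 58 day 1 cells (3.45%, 0.420 to 11.9%) and 6 of 19 day 3 cells (31.6%, 12.6 to 56.6%). The counts in the restricted set were 2 of 33 (6.06%, 0.743 to 20.2%) and 3 of 14 (21.4%, 4.66 to 50.8%), with overlapping intervals. FAPs stood at 1.42% and 32.0% and macrophages at 1.41% and 18.4%. For S phase genes the counts were 4 of 58 (6.90%, 1.91 to 16.7%) and 5 of 19 (26.3%, 9.15 to 51.2%), and 4 of 33 and 4 of 14 in the restricted set. FAPs stood at 24.2% and 24.5% for S phase and macrophages at 0.746% and 20.99%. Of 8 day 3 cells with S or G2 and M phase genes, 4 carried RNA of other cells and 3 held under 5 pan-endothelial genes.

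Among genes with at least 200 UMIs, the 10 with the highest ratio were *Col3a1*, *Col1a2*, *Col1a1*, *Col5a2*, *Postn*, *Fstl1*, *Saa3*, *Bgn*, *Nedd4* and *Dcn*, mostly genes of FAPs. *Col3a1* stood at 130 and 4913 CPM, in 6 of 64 and 7 of 19 cells, and at 4.43 and 24.1 CPM in the restricted set, while *Saa3* had 100% of its day 3 UMIs in 1 cell. The 10 lowest were *Gal*, *Ppbp*, *Cxcl3*, *S100a8*, *Cd14*, *Arg1*, *Bcl2a1b*, *G0s2*, *S100a9* and *Il1b*, of which *Gal* had 98.1% of its day 1 UMIs in 1 cell and most others are myeloid or platelet genes. *Cd14*, a monocyte receptor, stood at 1454 and 12.6 CPM, and at 31.0 and 8.03 CPM in the restricted set. Many of these 20 genes, *Col3a1* and *Cd14* among them, are markers by which the restricted set was chosen. Their low level there follows from that choice and is no check on the ranking. Of these 20 genes *Nedd4*, a ubiquitin ligase, was the one that still held 50 UMIs in the restricted set, at 129 and 393 CPM beside 119 and 688 CPM in all cells.

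Genes outside the lists that were at least 2-fold apart in both choices of cells are named here after their values were seen. *Sh2d5* had 91 UMIs in 36 day 1 cells and 1 UMI on day 3, a ratio of -4.76 (-10.65 to -2.82), and stood at 0.852 and 0.298 CPM in all other cells. *Rgs5*, a regulator of G protein signalling best known from pericytes, stood at 179 CPM (149 to 213) and 15.8 CPM (5.12 to 36.8), and 78 of its 128 day 1 UMIs lay in the restricted set, where the 12 pericyte and smooth muscle markers, *Rgs5* included, summed to 527 CPM on day 1, beside 31.5 CPM in all cells that were not endothelial. *Tm4sf1*, a membrane protein of growing endothelium, stood at 2324 and 843 CPM, with ratios of -1.46 and -1.48. It was also lower in FAPs, at 633 and 266 CPM, a ratio of -1.25.

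Other genes named after their values were seen were lower on day 3. *Atf4*, the factor that leads the amino acid response, had ratios of -1.63 and -2.23, and *Asns*, its target asparagine synthetase, -1.66 and -2.19. For *Atf4* and *Asns* the ratios were -0.99 and -2.44 in FAPs, and -0.43 and 0.24 in macrophages. *Nop56* and *Fbl*, proteins of the nucleolus, had ratios of -1.91 and -1.23, and in FAPs of -1.62 and -2.14. *Cdkn1a*, the cell cycle inhibitor p21, stood at 947 and 189 CPM, with ratios of -2.31 and -1.72, beside -0.61 in FAPs and -1.36 in macrophages.

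Higher in both were *Cavin2*, a caveolar coat protein, at 109 and 306 CPM, and *Gng11*, a G protein subunit, at 249 and 615 CPM. In FAPs and macrophages the ratios were 4.21 and 3.09 for *Cavin2*, and 1.82 and 3.65 for *Gng11*. *Gm42418*, a transcript annotated over a ribosomal RNA repeat, stood at 1794 and 8422 CPM, with ratios of 2.23 in endothelial cells, 2.98 in FAPs and 1.93 in macrophages. The mitochondrial *mt-Co1* had 1.15, 1.43 and 0.71. Both ratios were above 0 in all 3 kinds of cells, that of *mt-Co1* in macrophages under 2-fold.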

How the data were processed

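The authors deposited whole-number UMI counts for each gene in every listed barcode, made with Cell Ranger 5.0.0 on mm10 per the submitters' processing notes. These counts were used as deposited. The 7367 (day 1) and 6640 (day 3) barcodes with most UMIs were taken as cells, and those with at least 1000 UMIs, at least 200 genes and at most 7.5% mitochondrial UMIs were kept. The cells, gene lists and rules were chosen with earlier results of these data known. UMIs were summed per library and divided by the sum to give CPM, with exact Poisson intervals; a ratio carries an exact binomial interval, and a share a Clopper-Pearson interval. These cover counting error only. A gene entered with 50 UMIs over both days. To compare shares, each cell was thinned to 2000 UMIs, leaving out 6 day 1 cells. Named genes were list members that entered, the 10 highest and 10 lowest ratios at 200 or more UMIs, and the 10 highest ratios over other cells, without mitochondrial, ribosomal, hemoglobin and predicted genes. Doublets were kept; Scrublet's own threshold marked 2 and 0 cells, so an alternative removed the 363 and 171 highest scores (7 and 0 endothelial cells). The ratio step was tested on simulated data. Python 3.11.15, numpy 2.4.6, scipy 1.17.1, pandas 2.3.3 and scanpy 1.11.5 were used. Some list genes enter the counts but are not reported here by name.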

Additional observations from a re-analysis of the deposited data

Results flagged for a closer look

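*Trp53i11*, a gene of the tip cell list, lay in opposite directions in endothelial cells and in the other cell types of the same libraries. Its log2 ratio, day 3 over day 1, was -2.50 in endothelial cells (-3.59 to -1.68), from 204 CPM in 25 of 64 cells to 34.7 CPM in 6 of 19 cells, and -2.22 in the restricted set. It was 3.46 in FAPs, from 0.421 to 4.96 CPM, and 3.84 in macrophages, from 0.120 to 1.92 CPM. With 1 library per day the difference was not tested.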

How the results depend on the processing

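No paired analysis was possible because each day is 1 pooled library of different mice. With 19 day 3 cells, 1 cell can set a gene's level, and depth limits the lists of venous, lymphatic and cell cycle genes, most of whose members stayed under 50 UMIs. The endothelial share on day 1 was 0.668% without cells holding *Ptprc*, 0.579% in the restricted set and 0.583% in that set with a mitochondrial limit of 15%; the day 3 share kept within its interval under the alternatives tried.

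The counts of higher and lower genes, 370 and 469, became 240 and 289 without cells holding *Ptprc*, 88 and 156 in the restricted set and 118 and 181 in that set with the 15% limit, 976 and 827 with a minimum of 20 UMIs, and 51 and 120 with 200. These settings test fewer or more genes. The share of higher genes among both was 44.1%, 36.1% in the restricted set, 54.1% with 20 UMIs and 29.8% with 200. The other alternatives (3 pan-endothelial genes asked for, the 15% limit, another call of cells, doublets removed, thinning, the deepest 5% of cells left out, ambient RNA subtracted, a mean over cells, centring) gave 262 to 493 and 380 to 627.

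In the restricted set, first without and then with the 15% limit, the ratio changed sign for *Id2* (0.087 and 0.21), *Cxcl2* (0.45 and 0.058), *Nfkbiz* (0.75 and 0.88), *Nr4a1* (0.62 and 0.71), *Ets2* (0.053 and 0.085), *Serpinh1* (-0.19 and -0.16) and *Isg15* (-0.10 and -0.47). It did so without the limit for *Cd44* (0.10) and *Mmp14* (-0.13, and -0.22 after thinning) and with it for *Timp4* (0.028). Without cells holding *Ptprc* it did so for *Ccl7* (0.47), *Nfkbiz* (0.32) and *Slc16a3* (1.15). *Tagln* stood at -2.51 when 3 pan-endothelial genes were asked for, and *Lyz2* at 8.33 when ambient RNA was subtracted, at a share that *Lyz2* itself set on day 1. The median of the lymphatic list was 0.011 with 20 UMIs and that of the G2 and M phase list -0.26 with 200. Not every change of sign is listed. In the restricted set *Esam*, *Sox17* and *Pdgfb*, all with ratios under 2-fold, and *Bgn*, with few UMIs there, changed sign too. So did the median of the pan-endothelial list without cells holding *Ptprc*. The cause of these reversals was not tested.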
